A study of Mus musculus with 20 samples.

Results

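RNA levels of 10 basement membrane genes were followed across 5 groups of stem-cell-derived mouse structures. The genes were picked by name: Col4a1, Col4a2, Lama1, Lama5, Lamb1, Lamc1, Nid1, Nid2, Hspg2 and Agrn. All 10 were found among the 54446 gene IDs of the deposited tables, and all 10 were among the 14290 genes with a mean of at least 1 TPM that were tested. TPM, the unit of the tables, is an abundance corrected for transcript length and scaled to a fixed total per library, so levels of different genes can be set side by side on it.

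The study grew trunk-like structures, aggregates of stem cells that form somites and a neural tube, and bulk RNA was sequenced from 15 libraries in 5 groups of 3, which the labels call biological replicates. All groups came from F1G4 cells with the genotype T::H2B-mCherry/Sox2::H2B-Venus, a double reporter of Brachyury and Sox2, and all were pulsed at 48 h with 3 µM CHIR99021, which activates WNT signalling by inhibiting the kinase GSK3. Structures with an asymmetric pole were selected before pooling, so each library describes chosen structures. RNA extracts had integrity values above 8, per the labels' protocols.

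The group called 96h was collected at 96 h, before the other groups, with 10 structures in each library. The remaining groups were collected at 120 h with 6 structures in each library. Gastruloid structures had no Matrigel, TLSMG structures were in Matrigel, TLSMGC structures were in Matrigel with further CHIR, and TLSMGCL structures were in Matrigel with CHIR and LDN, an inhibitor of BMP receptors. Time and the number of pooled structures changed together between 96h and the later groups and cannot be told apart. The doses of the later CHIR and of LDN, and the concentration of Matrigel, are not stated in the labels used here.

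A basement membrane is a thin sheet of extracellular matrix under epithelia and around muscle and vessels. Laminins, trimers of an alpha, a beta and a gamma chain, polymerise on the cell surface, collagen IV forms a second network, and nidogens and the heparan sulfate proteoglycans perlecan and agrin tie the networks together. In the embryo such sheets surround the neural tube and the somites. Matrigel is itself an extract of a mouse basement membrane tumour, rich in laminin-111 (the trimer of Lama1, Lamb1 and Lamc1 products), collagen IV, nidogen and perlecan. The values below are RNA of the structures and say nothing about the amount of protein, from either source.

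Relative depth, measured as coverage per FPKM, ran from 3.12 to 6.84 over the libraries, and 13688 to 14494 genes stood at 1 TPM or more. Of 9 markers of trunk tissues, 8 or 9 had a group mean of at least 1 TPM in every group, and their summed level per library was 708 to 1221 TPM. The marker mix differed between groups: the neural marker Pax6 averaged 23.5 TPM in Gastruloid, 10.5 TPM in TLSMG, 0.139 TPM in TLSMGC and 0.242 TPM in TLSMGCL, and the presomitic marker Tbx6 averaged 323 TPM in 96h, 2.88 TPM in Gastruloid, 6.02 TPM in TLSMG, 61.6 TPM in TLSMGC and 57.1 TPM in TLSMGCL. In bulk RNA, fewer cells of a type and less RNA per cell cannot be told apart.

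Promoter sequences are shown for members with an entry and wide differences in the comparisons with TLSMG at 120 h, and for the start shared by the collagen IV pair. The RefSeq promoter table on build GRCm38.p6, with windows of 250 bases before to 50 bases after a start, held 7 of the 10 members in 8 windows. Lama1, Lamc1 and Nid2 had no entry. Each stretch below ends at the base before the annotated gene start and is written 5′ to 3′ on the gene's own strand. Capitals mark the GC box, a motif bound by SP-family factors, as GGGCGG or its reverse complement CCGCCC. Nid1 (chr13:13437352-13437550, + strand) and Hspg2 (chr4:137468553-137468768, + strand) had the widest differences among the members higher in TLSMG than in Gastruloid and lower with added CHIR, a pattern that the calls of Lamc1 shared with smaller differences. Lama5 (chr2:180225860-180226109, − strand) and Lamb1 (chr12:31265043-31265233, + strand) were the laminin genes higher with added CHIR.
Nid1: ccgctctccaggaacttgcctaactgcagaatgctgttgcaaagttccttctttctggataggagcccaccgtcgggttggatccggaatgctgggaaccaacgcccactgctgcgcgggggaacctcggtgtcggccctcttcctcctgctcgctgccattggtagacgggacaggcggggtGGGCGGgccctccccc
Hspg2: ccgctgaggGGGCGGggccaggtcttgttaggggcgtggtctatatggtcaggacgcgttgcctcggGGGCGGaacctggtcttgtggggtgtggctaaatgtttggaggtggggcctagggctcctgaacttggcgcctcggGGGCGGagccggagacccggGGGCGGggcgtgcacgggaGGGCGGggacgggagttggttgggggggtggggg
Lama5: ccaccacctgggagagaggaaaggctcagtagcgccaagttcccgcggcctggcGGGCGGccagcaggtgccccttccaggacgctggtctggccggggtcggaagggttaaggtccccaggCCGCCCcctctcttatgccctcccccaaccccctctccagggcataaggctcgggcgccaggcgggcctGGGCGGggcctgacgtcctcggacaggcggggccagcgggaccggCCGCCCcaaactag
Lamb1: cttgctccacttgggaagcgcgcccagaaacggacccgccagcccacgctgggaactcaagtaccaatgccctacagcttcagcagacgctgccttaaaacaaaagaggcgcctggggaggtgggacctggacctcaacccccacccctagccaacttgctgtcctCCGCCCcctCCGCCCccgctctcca

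The printed stretch of Nid1 held 1 GC box, that of Hspg2 5, that of Lama5 4 and that of Lamb1 2. All 8 member windows held at least 1 GC box on either strand, against 35.7% of the 32851 windows in the table. These windows are not separate observations: 2 belong to Agrn, and those of Col4a1 and Col4a2 overlap and share the 1 GC box of the Col4a1 window. The 4 printed stretches were 63.8 to 72.4% GC, and the GC content of all windows was not computed. CTTTGA, the core of the TCF/LEF motif of WNT signalling (TCAAAG on the other strand), was in none of the 8 windows and in 16% of all windows. CCGGAA, an ETS core with flanks (TTCCGG on the other strand), was in the Nid1 window alone among the members and in 14.9% of all windows. A match is only a match of letters, and its absence says only that the letters are not in this window.

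Across the 5 groups all 10 members differed by the moderated F test of limma at an adjusted p under 0.05, where 73.5% of all genes tested did. Among the 4 groups at 120 h, 9 of 10 members differed, against 62.7% of all genes tested, and Nid2 was the member that did not pass (adjusted p = 0.773). Most genes of the whole table thus also differed somewhere among the groups. Their summed level was 682 ± 7.49 TPM (SD, n = 3) in 96h, 512 ± 47.1 TPM in Gastruloid, 585 ± 57.8 TPM in TLSMG, 653 ± 45.1 TPM in TLSMGC and 660 ± 64.3 TPM in TLSMGCL. The order of the members also differed between groups: Nid2 had the highest mean in 96h, Gastruloid and TLSMG and Col4a1 in TLSMGC and TLSMGCL, and the libraries of the pair overlapped in TLSMG, TLSMGC and TLSMGCL. Nid1 had the lowest mean in every group, although in TLSMG its libraries overlapped those of Lama5 and of Lama1. The plot of TPM by library shows every value.

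**Figure D1:**
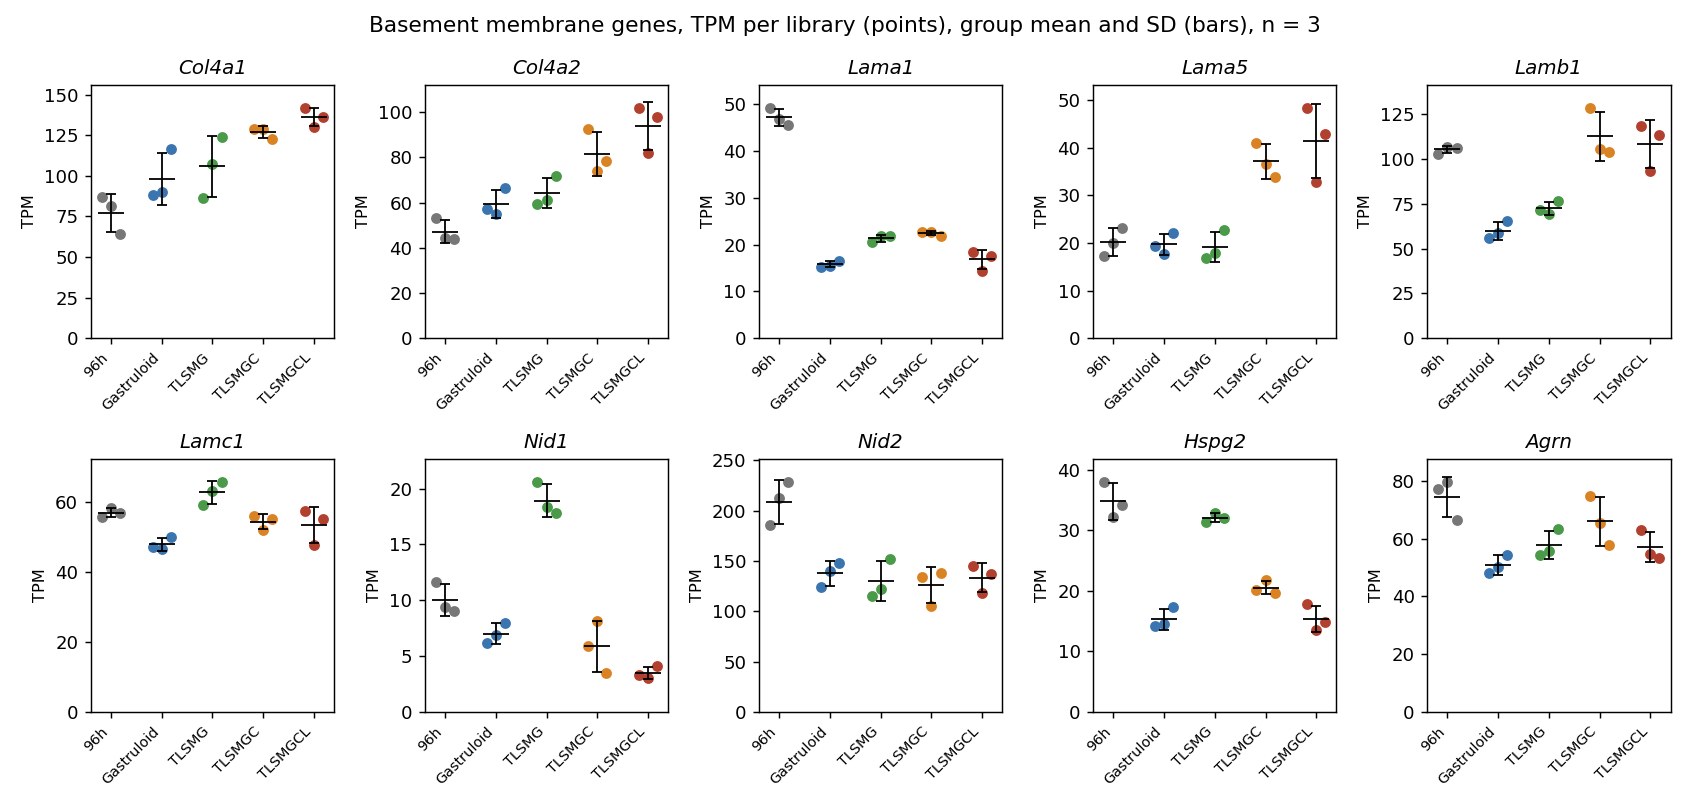
TPM of the 10 basement membrane genes (vertical axis, starting at 0) in the 15 libraries, 1 panel per gene and 1 point per library, with the group mean and SD as bars (n = 3). Col4a1 and Col4a2 had their lowest means in 96h, Lama1 was highest in 96h at 45.5 to 49.2 TPM, and Nid1 was highest in TLSMG at 17.8 to 20.6 TPM.

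Both collagen IV genes had their highest mean in TLSMGCL, followed by TLSMGC, the groups with added CHIR. The laminin genes Lama5 and Lamb1 also had their highest means in these groups, whereas Lama1 and Lamc1 did not. Mean TPM in TLSMGC over TLSMG was 1.94-fold for Lama5 and 1.55-fold for Lamb1. It was 1.27-fold for Col4a2 and 1.2-fold for Col4a1, where the difference of Col4a1 was not called. Col4a1 (ENSMUSG00000031502.11, chromosome 8, 11198423 to 11312826, − strand, build GRCm38) and Col4a2 (ENSMUSG00000031503.13, chromosome 8, 11312805 to 11449287, + strand) encode the chains of the ubiquitous collagen IV trimer. The genes lie head to head, and their annotated ends overlap by 22 bases on opposite strands. That shared stretch, at chr8:11312805-11312826 and shown on the + strand because both transcripts start in it, holds a GC box.
Col4a1 and Col4a2: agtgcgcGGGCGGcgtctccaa

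Col4a1 stood at 86.7, 81.2 and 64.2 TPM in the 96h libraries, 88.0, 90.0 and 116 TPM in Gastruloid and 86.5, 107 and 124 TPM in TLSMG. With CHIR it stood at 129, 129 and 123 TPM in TLSMGC and 142, 130 and 137 TPM in TLSMGCL. Every TLSMGCL library was above every 96h, Gastruloid, TLSMG and TLSMGC library, whereas the Gastruloid and TLSMG libraries overlapped. Col4a2 stood at 53.0, 44.2 and 44.0 TPM in 96h, 57.2, 54.7 and 66.6 TPM in Gastruloid, and 59.5, 60.9 and 71.8 TPM in TLSMG. Its TLSMGC libraries held 92.3, 73.8 and 78.3 TPM and its TLSMGCL libraries 102, 81.9 and 97.8 TPM. Both groups with CHIR lay above all TLSMG libraries for Col4a2. The ratio of Col4a1 to Col4a2 was 1.64 ± 0.187 (SD, n = 3) in 96h, 1.64 ± 0.104 in Gastruloid, 1.65 ± 0.168 in TLSMG, 1.57 ± 0.173 in TLSMGC and 1.46 ± 0.113 in TLSMGCL, so the chains kept a like proportion within the spread of the libraries.

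The laminin alpha chains, which carry the domains that cells bind, went in different directions. Lama1 (ENSMUSG00000032796.8, chromosome 17, 67697259 to 67822647, + strand) encodes alpha 1, the alpha chain of the first embryonic laminin. It stood at 49.2, 46.7 and 45.5 TPM in 96h, 15.3, 15.5 and 16.6 TPM in Gastruloid, 20.5, 21.8 and 21.7 TPM in TLSMG, 22.6, 22.8 and 21.9 TPM in TLSMGC and 18.5, 14.5 and 17.6 TPM in TLSMGCL. All 12 later libraries lay below all 96h libraries, and only Gastruloid and TLSMGCL overlapped among neighbours in the order of the groups. Lama5 (ENSMUSG00000015647.9, chromosome 2, 180176373 to 180225859, − strand) encodes alpha 5, the chain of the laminin most widespread in later basement membranes. It stood at 17.2, 20.0 and 23.1 TPM in 96h, 19.3, 17.7 and 22.1 TPM in Gastruloid, and 16.9, 17.9 and 22.7 TPM in TLSMG. In TLSMGC it stood at 41.1, 36.5 and 33.8 TPM and in TLSMGCL at 48.3, 32.9 and 42.9 TPM. The groups with CHIR lay apart from and above the other groups, which overlapped one another.

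Set against each other, Lama1 made up 70.1 ± 3.84% (SD, n = 3) of the summed TPM of Lama1 and Lama5 in 96h. The share was 44.6 ± 1.89% in Gastruloid, 52.9 ± 3.43% in TLSMG, 37.8 ± 1.99% in TLSMGC and 29.1 ± 1.44% in TLSMGCL, and no group's libraries overlapped another's. Their sum was 67.3 ± 1.19 TPM in 96h, 35.5 ± 2.83 TPM in Gastruloid, 40.5 ± 3.57 TPM in TLSMG, 59.6 ± 3.97 TPM in TLSMGC and 58.2 ± 9.92 TPM in TLSMGCL. The sum with CHIR was thus near that of 96h, with the larger part from Lama1 in 96h and from Lama5 with CHIR.

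The laminin chains shared by both trimers are beta 1, from Lamb1 (ENSMUSG00000002900.16, chromosome 12, 31265234 to 31329644, + strand), and gamma 1, from Lamc1 (ENSMUSG00000026478.14, chromosome 1, 153218922 to 153332786, − strand). Lamb1 stood at 103, 107 and 106 TPM in 96h, 55.8, 58.5 and 65.4 TPM in Gastruloid, 71.3, 69.5 and 76.7 TPM in TLSMG, 128, 106 and 104 TPM in TLSMGC and 118, 93.2 and 113 TPM in TLSMGCL. The 96h, TLSMGC and TLSMGCL libraries overlapped, and all of them lay above the TLSMG and Gastruloid libraries. Lamc1 varied least of the laminin chains, from 46.7 to 65.9 TPM over all 15 libraries, with its highest mean in TLSMG and its lowest in Gastruloid. The ratio of Lamb1 to Lamc1 was 1.85 ± 0.0128 (SD, n = 3) in 96h, 1.25 ± 0.0631 in Gastruloid and 1.16 ± 0.0534 in TLSMG. With CHIR it was 2.07 ± 0.206 in TLSMGC and 2.02 ± 0.0588 in TLSMGCL, so the groups without CHIR at 120 h were the lowest.

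Nidogens link laminin to collagen IV, and the genes of the pair had unlike patterns. Nid1 (ENSMUSG00000005397.8, chromosome 13, 13437551 to 13512269, + strand) stood at 11.7, 9.37 and 9.03 TPM in 96h, 6.19, 6.88 and 7.99 TPM in Gastruloid, and 20.6, 18.3 and 17.8 TPM in TLSMG. In TLSMGC it stood at 5.95, 8.14 and 3.54 TPM and in TLSMGCL at 3.34, 3.03 and 4.11 TPM. The TLSMG libraries lay far above all others, and the TLSMGC libraries were the most scattered. Nid2 (ENSMUSG00000021806.4, chromosome 14, 19751265 to 19811787, + strand) stood at 185, 212 and 229 TPM in 96h, and at 105 to 152 TPM in the 12 libraries of the other groups, which overlapped one another. Nid2 overlaps by 437 bases with Rtraf, a gene on the opposite strand at a mean of 171 TPM, and whether strand was used in the authors' estimates is not given in the sources used here, so reads in that stretch may have been shared.

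Nid1 made up 4.65 ± 1.12% (SD, n = 3) of the summed nidogen TPM in 96h and 4.84 ± 0.239% in Gastruloid. The share was 12.9 ± 2.36% in TLSMG, 4.65 ± 2.37% in TLSMGC and 2.55 ± 0.331% in TLSMGCL, and the TLSMG libraries, at 10.5 to 15.2%, overlapped no other group.

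The heparan sulfate proteoglycans bind growth factors as well as laminin. Hspg2 (ENSMUSG00000028763.17, chromosome 4, 137468769 to 137570630, + strand) encodes perlecan. It stood at 38.0, 32.1 and 34.1 TPM in 96h, 14.2, 14.5 and 17.3 TPM in Gastruloid, 31.4, 32.8 and 32.0 TPM in TLSMG, 20.2, 21.7 and 19.7 TPM in TLSMGC and 17.8, 13.6 and 14.9 TPM in TLSMGCL. The 96h and TLSMG libraries overlapped, and both lay above all others. Agrn (ENSMUSG00000041936.18, chromosome 4, 156165290 to 156197488, − strand) encodes agrin, known from the neuromuscular junction. It stood at 77.1, 79.7 and 66.5 TPM in 96h and lowest in Gastruloid, at 48.0, 50.1 and 54.5 TPM, with the other groups between 53.4 and 74.7 TPM. Hspg2 made up 31.9 ± 2.77% (SD, n = 3) of the summed TPM of Hspg2 and Agrn in 96h, 23.1 ± 0.908% in Gastruloid, 35.7 ± 1.88% in TLSMG, 23.9 ± 2.28% in TLSMGC and 21.2 ± 1.15% in TLSMGCL.

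**Figure D2:**
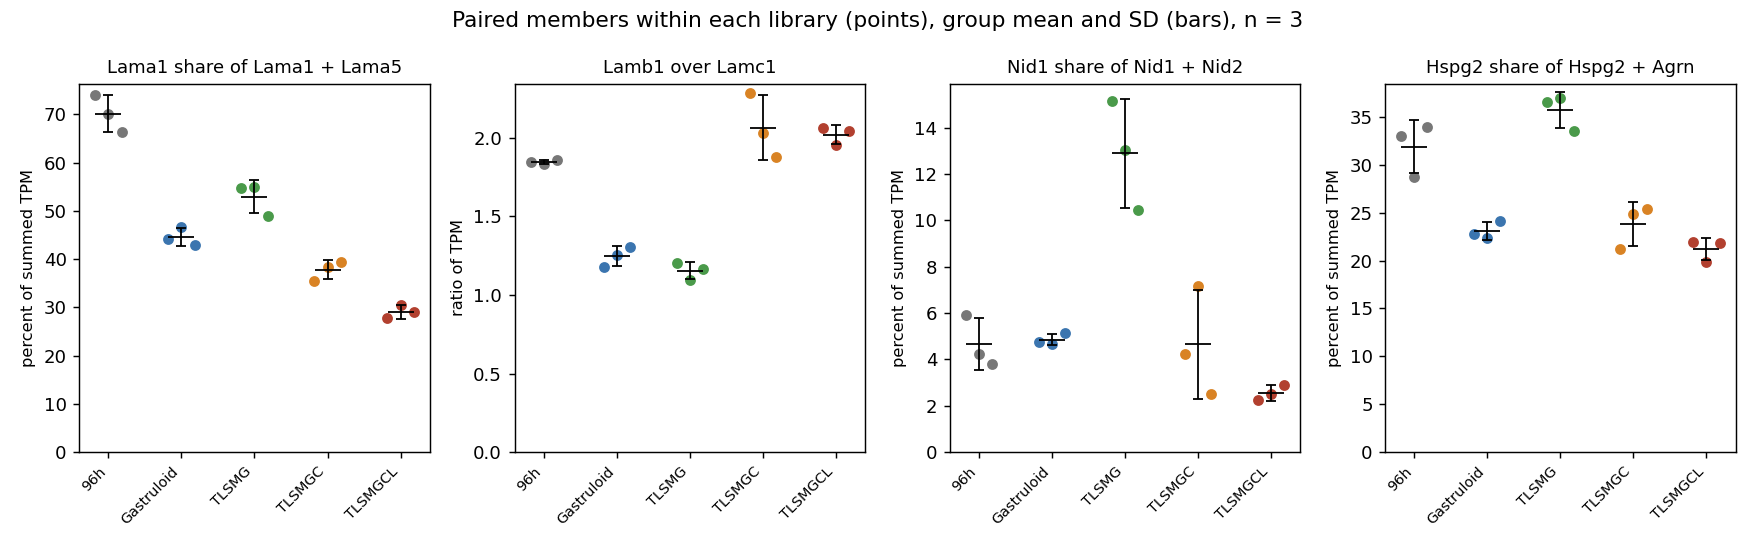
Paired members within each library, 1 point per library, with group means and SD as bars (n = 3). The vertical axes give the percent of a pair's summed TPM, or the ratio of TPM for Lamb1 over Lamc1; Lama1 fell from 70.1% of its pair in 96h to 29.1% in TLSMGCL, and Nid1 reached 12.9% of its pair in TLSMG.

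The change with time and no Matrigel was read from Gastruloid against 96h. Of 8 laminin, nidogen and proteoglycan genes 6 were lower, and of the collagen IV genes 1 of 2 was called higher. Lama1 fell by 1.52 (SE 0.082) on the scale of log2(TPM + 1), a mean 2.98-fold lower, with an adjusted p of 6.86e-09 by limma. Hspg2 fell by 1.13 (SE 0.102, adjusted p = 1.19e-06), a mean 2.27-fold lower, and Lamb1 fell by 0.81 (SE 0.098, adjusted p = 2.17e-05). Nid2 (log2 difference -0.60, adjusted p = 0.00228), Agrn (-0.54, adjusted p = 0.001) and Lamc1 (-0.24, adjusted p = 0.0137) were lower too. The only member called higher was Col4a2 (log2 difference 0.33, adjusted p = 0.0354), a call lost without 96h replicate 2 or 3 or Gastruloid replicate 1 or 3, where the adjusted p rose to at most 0.138. Col4a1 (0.34, adjusted p = 0.0619) and Nid1 (-0.46, adjusted p = 0.0831) missed the threshold, and Lama5 differed by -0.02 with a 95% interval from -0.35 to 0.30. Col4a1 passed as higher after median-of-ratios scaling (0.332, adjusted p = 0.0467) and with FPKM in place of TPM (0.420, adjusted p = 0.0137). It also passed as higher with GC content and length taken out (0.385, adjusted p = 0.0152).

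Of the 10 members, 7 were called, 1 higher and 6 lower, where 41.2% of all genes tested were called, 20.8% higher and 20.5% lower. The libraries of 9 members did not overlap between the groups, where 56.8% of all genes did not. The median log2 difference was -0.50 over the members and 0.00 over all genes.

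With Matrigel over the same time, TLSMG against 96h, Lama1 (log2 difference -1.11, adjusted p = 1.52e-07 by limma), Nid2 (-0.68, adjusted p = 0.000721), Lamb1 (-0.53, adjusted p = 0.000609) and Agrn (-0.36, adjusted p = 0.0122) were lower. Nid1 was higher by 0.86 (SE 0.200, adjusted p = 0.00317), a mean 1.89-fold, and so were Col4a2 (0.44, adjusted p = 0.00738) and Col4a1 (0.44, adjusted p = 0.0167). The Col4a1 call was lost when either the 96h or the TLSMG library numbered 3 was left out (adjusted p = 0.0836 and 0.0837), and the Agrn call when 96h library 2 was (adjusted p = 0.0533). Hspg2 (-0.11, adjusted p = 0.401), Lamc1 (0.14, adjusted p = 0.136) and Lama5 (-0.07, adjusted p = 0.735) did not pass. The count was 7 members, 3 higher and 4 lower, where 46% of all genes were called, 33.5% higher and 12.5% lower. The libraries of 7 members did not overlap, against 58.4% of all genes.

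The TLSMG libraries sat to 1 side of the others for most genes, and this bears on each comparison with them. The median over all genes was 0.14 in TLSMG against 96h, 0.13 against Gastruloid, -0.16 in TLSMGC against TLSMG and -0.18 in TLSMGCL against TLSMG, all on log2(TPM + 1). Scaling by median of ratios brought these medians to within 0.02 of 0, and split the calls of TLSMG against 96h into 3147 higher and 3342 lower in place of 4792 and 1785. With that scaling Hspg2 passed as lower in TLSMG than in 96h (log2 difference -0.28, adjusted p = 0.0181) and Col4a1 no longer passed as higher (0.27, adjusted p = 0.0998). The Gastruloid and TLSMG comparisons share the 96h libraries, so their values are not independent of each other.

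The effect of Matrigel at 120 h was read from TLSMG against Gastruloid, and Nid1 and Hspg2 stood out among the members. Nid1 was higher by 1.32 (SE 0.200, adjusted p = 0.000396 by limma), a mean 2.7-fold, and Hspg2 by 1.02 (SE 0.102, adjusted p = 3.82e-05), a mean 2.09-fold. Lama1 (0.41, adjusted p = 0.00179), Lamc1 (0.38, adjusted p = 0.00127) and Lamb1 (0.27, adjusted p = 0.0412) were called with smaller differences, and Lamb1 lost its call in 5 of the 6 fits that left out 1 library (highest adjusted p = 0.142). The collagen IV genes, Nid2, Agrn and Lama5 did not pass, with log2 differences from -0.09 to 0.18. In all, 5 members were called higher and 0 lower, where 39.3% of all genes were called, 31.5% higher and 7.87% lower. Libraries of 5 members did not overlap, against 52.3% of all genes.

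After scaling by median of ratios, Nid1 was higher in TLSMG by 1.16 (adjusted p = 0.00103), Hspg2 by 0.86 (adjusted p = 7.22e-05), Lama1 by 0.25 (adjusted p = 0.00802) and Lamc1 by 0.21 (adjusted p = 0.00704), and Lamb1 did not pass (0.10, adjusted p = 0.301). The calls over all genes then split into 2753 higher and 2584 lower in place of 4497 and 1125. The differences between TLSMG and Gastruloid also followed GC content across genes (r = -0.41 over 14283 genes, which are not independent replicates). With GC content and length taken out, only Nid1 (1.05, adjusted p = 0.00213) and Hspg2 (0.72, adjusted p = 0.0001) of the members passed, and Lama1 (0.11, adjusted p = 0.135) and Lamc1 (0.11, adjusted p = 0.125) did not.

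**Figure D3:**
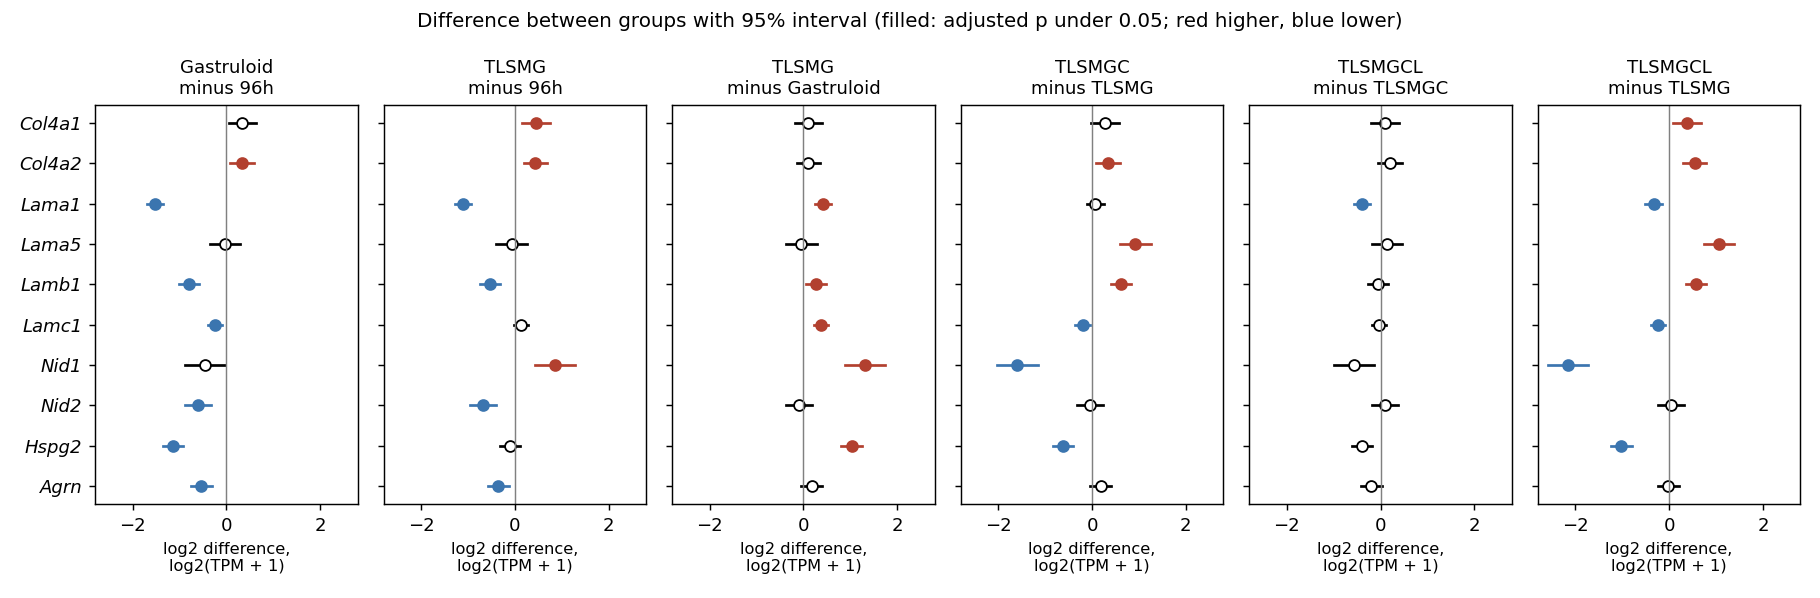
Log2 difference of each basement membrane gene in 6 comparisons on the scale of log2(TPM + 1), with the 95% interval; filled points passed an adjusted p under 0.05 in limma. Nid1 and Hspg2 lay to the right in TLSMG minus Gastruloid and to the left in both comparisons of CHIR groups with TLSMG, and Lama5 and Lamb1 lay to the right there.

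Adding CHIR in Matrigel, TLSMGC against TLSMG, moved members both ways. Lama5 was higher by 0.93 (SE 0.151, adjusted p = 0.000313 by limma), a mean 1.94-fold, and Lamb1 by 0.62 (SE 0.098, adjusted p = 0.000241), a mean 1.55-fold. Nid1 fell by 1.59 (SE 0.200, adjusted p = 3.58e-05), a mean 3.22-fold lower, and Hspg2 fell by 0.62 (SE 0.102, adjusted p = 0.000324), a mean 1.56-fold lower. Col4a2 was called higher (0.34, adjusted p = 0.0317), a call lost without TLSMG replicate 1 or 2 or TLSMGC replicate 1 or 3 (highest adjusted p = 0.128). Lamc1 was called lower (-0.20, adjusted p = 0.0357), but this was close to the median of all genes: it stood at -0.03 (adjusted p = 0.681) after median-of-ratios scaling and at 0.14 (adjusted p = 0.034), the other direction, with GC content and length taken out. The Lamc1 call was also lost without TLSMG replicate 2 or 3 or TLSMGC replicate 2 or 3 (highest adjusted p = 0.125). Col4a1, Lama1, Nid2 and Agrn did not pass, with log2 differences from -0.05 to 0.27, and Col4a1 (0.45), Lama1 (0.24) and Agrn (0.35) passed as higher after median-of-ratios scaling.

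Here 6 members were called, 3 higher and 3 lower, where 40.9% of all genes were called, 10.4% higher and 30.5% lower. With GC content and length taken out the count was 9 members, 7 higher and 2 lower. The scaling by median of ratios gave 8 members, 6 higher and 2 lower, and split all calls into 2741 higher and 2572 lower in place of 1490 and 4352. Libraries of 7 members did not overlap, against 52.4% of all genes. Lama5, Lamb1 and Col4a2 kept their direction and call under both scalings and the GC correction, as did Nid1 and Hspg2, although Hspg2 missed the threshold when the GC correction was joined with a replicate block (-0.20, adjusted p = 0.0734).

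LDN on top of CHIR, TLSMGCL against TLSMGC, left few differences in the whole table. Lama1 was lower, at 16.8 ± 2.11 TPM (SD, n = 3) against 22.5 ± 0.459 TPM, a log2 difference of -0.40 (SE 0.082, adjusted p = 0.0331 by limma). That was 1 member called, 0 higher and 1 lower, where 1.18% of all genes were called, 0.406% higher and 0.777% lower. The call was lost without TLSMGC replicate 1 or 2 or TLSMGCL replicate 2 or 3, where the adjusted p lay between 0.0598 and 0.11, and in a fit of these groups alone (adjusted p = 0.283). Hspg2 (-0.40, adjusted p = 0.0869) and Nid1 (-0.56, adjusted p = 0.23) did not pass. Hspg2 passed as lower with GC content and length taken out (-0.33, adjusted p = 0.0456), and Nid1 without TLSMGC replicate 3 (-0.83, adjusted p = 0.0203). The libraries of 3 members, Col4a1, Lama1 and Hspg2, did not overlap, against 15.8% of all genes. The remaining log2 differences ran from -0.20 to 0.20, with 95% intervals between -0.43 and 0.46, so changes of that size cannot be seen as absent.

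CHIR and LDN together, TLSMGCL against TLSMG, gave the widest differences of Nid1, which fell by 2.15 (SE 0.200, adjusted p = 2.07e-06 by limma), a mean 5.41-fold lower. Hspg2 fell by 1.02 (SE 0.102, adjusted p = 3.86e-06), a mean 2.08-fold lower. Lama5 was higher by 1.07 (SE 0.151, adjusted p = 8.72e-05), a mean 2.16-fold, Lamb1 by 0.57 (adjusted p = 0.000448), Col4a2 by 0.54 (adjusted p = 0.00208) and Col4a1 by 0.37 (adjusted p = 0.0384). Col4a1 lost its call in 5 of the 6 fits that left out 1 library, all but that without TLSMG replicate 3, and its log2 difference ran down to 0.24. Lama1 (-0.33, adjusted p = 0.00497) and Lamc1 (-0.23, adjusted p = 0.0173) were called lower, but neither passed after median-of-ratios scaling (-0.13 and -0.02). The Lamc1 call was also lost without TLSMG replicate 2 or 3 or TLSMGCL replicate 2 (highest adjusted p = 0.0768), and with GC content and length taken out it turned to higher (0.15, adjusted p = 0.0253). Lama1 was then at 0.08 (adjusted p = 0.246), and Nid2 (0.34, adjusted p = 0.0304) and Agrn (0.39, adjusted p = 0.00397) passed as higher. The count was 8 members, 4 higher and 4 lower, where 44.9% of all genes were called, 9.31% higher and 35.6% lower. With GC content and length taken out it was 9 members, 7 higher and 2 lower. After median-of-ratios scaling it was 6 members, 4 higher and 2 lower, and all calls split into 2837 higher and 2749 lower in place of 1330 and 5086. Libraries of 8 members did not overlap, against 54.7% of all genes. The TLSMG libraries are shared with the preceding comparisons.

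Markers of endothelium, vessel-lining cells that make their own basement membrane, were like Nid1 highest in TLSMG, but the order of the other groups differed. The 8 markers (Kdr, Cdh5, Pecam1, Tie1, Tek, Cldn5, Sox18 and Flt1) summed to 6.50 to 10.6 TPM in the 96h libraries, 32.2 to 41.7 TPM in Gastruloid, 246 to 302 TPM in TLSMG, 22.6 to 79.8 TPM in TLSMGC and 12.0 to 20.0 TPM in TLSMGCL. In TLSMG all 8 had means of at least 5.02 TPM, with Kdr, the VEGF receptor, at 95.3 TPM. None of the 8 was at 0 in every library of a group, and 3 of 8 reached a mean of 1 TPM in 96h. Within TLSMGC the library with the highest Nid1, at 8.14 TPM, had the highest marker sum, 79.8 TPM, and the library with the lowest Nid1, at 3.54 TPM, had the lowest sum, 22.6 TPM. The libraries of 96h, Gastruloid and TLSMG also stood in the same order by Nid1 as by marker sum. Within TLSMGCL, by contrast, the library with the lowest Nid1, at 3.03 TPM, had the highest sum, 20.0 TPM. For Hspg2 the order of libraries matched that of the sums in Gastruloid and TLSMGC, and differed from it in 96h, TLSMG and TLSMGCL. Between groups, Nid1 averaged 10.0 TPM and Hspg2 34.8 TPM in 96h, with marker sums under those of every other group. The part of endothelial cells in the levels of Nid1 and Hspg2 was not tested.

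**Figure D4:**
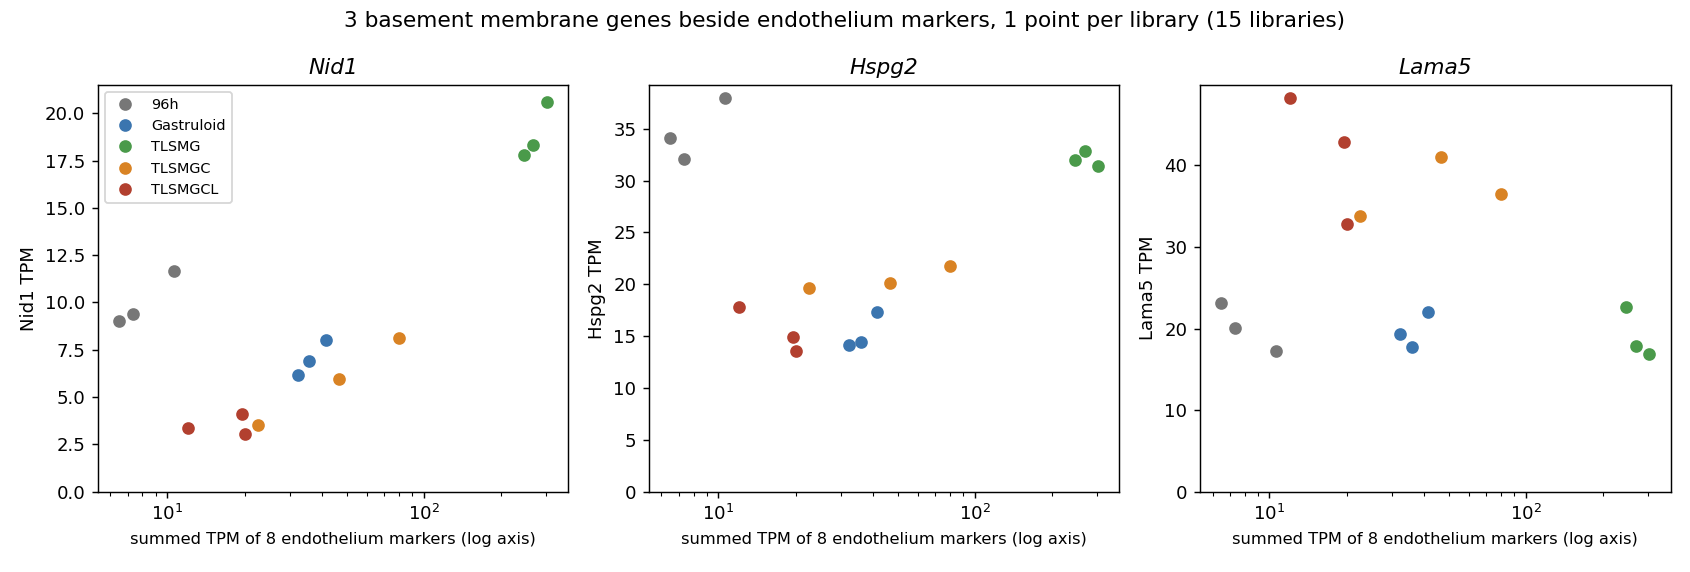
TPM of Nid1, Hspg2 and Lama5 (vertical axes, starting at 0) against the summed TPM of 8 endothelium markers (horizontal log axis), 1 point per library in 15 libraries. The TLSMG libraries lie at the right with marker sums of 246 to 302 TPM, and the 96h libraries combine the lowest sums with Hspg2 at 32.1 TPM or more.

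Parietal endoderm, an extraembryonic layer that lays down a thick basement membrane, was checked by 8 markers because it makes the same laminin and collagen IV. Their sum was 251 to 268 TPM in 96h, 69.3 to 81.4 TPM in Gastruloid, 76.9 to 86.0 TPM in TLSMG, 127 to 142 TPM in TLSMGC and 87.2 to 92.9 TPM in TLSMGCL. The largest parts in 96h were Cited1 (165 TPM) and Pth1r (63.0 TPM), which trunk tissues can also express. Plat averaged 15.6 TPM in 96h and was the largest part in Gastruloid (39.5 TPM) and TLSMG (39.8 TPM). Among the remaining markers in 96h, Sox7 averaged 0.316 TPM and Thbd 0.176 TPM, and Srgn was listed at 0 in all 3 libraries. Gata6 averaged 10.4 TPM and Gata4 3.50 TPM there, both highest in 96h replicate 1, at 18.4 and 6.84 TPM. The sum and Lama1 were both highest in 96h, and the part of such cells in the level of Lama1 was not tested. Markers of gut endoderm summed to 115 to 160 TPM in 96h, 103 to 131 TPM in Gastruloid, 89.1 to 134 TPM in TLSMG, 42.1 to 80.6 TPM in TLSMGC and 47.1 to 65.4 TPM in TLSMGCL. Stem cells were grown on feeder cells and freed of them before aggregation, and markers of fibroblasts summed to at most 48.4 TPM in any library.

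Other chains of the same families were mostly at low levels. Of 13 further collagen IV, laminin and core chain genes, 5 passed the filter: Col4a5, Col4a6, Lamb2, Col18a1 and Lama4. Col4a6, a chain of a second collagen IV trimer, averaged 6.03 TPM in 96h, 3.36 TPM in Gastruloid, 4.63 TPM in TLSMG, 16.2 TPM in TLSMGC and 14.3 TPM in TLSMGCL, and with CHIR it was 3.50-fold higher than in TLSMG (log2 difference 1.62, adjusted p = 2.81e-07). Col18a1, the precursor of endostatin, rose from 48.5 ± 5.08 TPM (SD, n = 3) in 96h to 146 ± 7.51 TPM in Gastruloid (log2 difference 1.57, adjusted p = 1.67e-08), 157 ± 8.11 TPM in TLSMG and 294 TPM in TLSMGCL. Lamb2, beta 2, fell from 10.0 TPM in TLSMG, with libraries from 7.55 to 12.3 TPM, to 5.68 TPM in TLSMGC (log2 difference -0.71, adjusted p = 0.00606). It did not pass with GC content and length taken out (-0.393, adjusted p = 0.0545). Lama4, an alpha chain of vessel walls that was singled out after its values were seen, had a mean of 4.50 TPM in TLSMG and at most 0.859 TPM in the other groups.

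Of 11 tested genes for proteases, their inhibitors and heparan sulfate editing, 10 fell and 0 rose in TLSMGC against TLSMG, where 30.5% of all genes were called lower and 10.4% higher. The median log2 difference was -0.88, and that of all genes -0.16. Timp3, an inhibitor held in the matrix, fell from 29.5 TPM to 5.44 TPM (log2 difference -2.25, adjusted p = 2.79e-07), and Adamts9, a protease, from 13.1 TPM to 5.54 TPM (-1.11, adjusted p = 2.18e-05). The list holds enzymes that cut the matrix beside their inhibitors, and both kinds fell. After median-of-ratios scaling 9 genes of the list fell and 0 rose, with a median of -0.73. With GC content and length taken out 9 fell and 0 rose, with a median of -0.71. In TLSMGCL against TLSMG 10 fell and 0 rose too, where 35.6% of all genes were called lower and 9.31% higher. Mmp2, a gelatinase, was among those that fell (-1.56, adjusted p = 6.01e-07). There 9 fell after median-of-ratios scaling and 7 with GC content and length taken out, and 0 rose in either. Against 96h, Sulf1, which trims heparan sulfate, was lower in Gastruloid (-1.35, adjusted p = 1.09e-07) and TLSMG (-1.12, adjusted p = 6.24e-07), while Timp3 was higher (1.26, adjusted p = 3.53e-05, and 1.5, adjusted p = 6.38e-06).

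Genes for folding, secretion and crosslinking of matrix proteins went both ways. Plod1, a lysyl hydroxylase that modifies collagen chains, averaged 18.7 TPM in 96h, 64.2 TPM in Gastruloid, 38.9 TPM in TLSMG, 136 TPM in TLSMGC and 211 TPM in TLSMGCL, and was 5.41-fold higher in TLSMGCL than in TLSMG (log2 difference 2.42, adjusted p = 8.21e-08). Of 12 tested genes in this list, 5 rose and 2 fell in TLSMGC against TLSMG, where 10.4% of all genes were called higher and 30.5% lower, P4ha1, a prolyl hydroxylase, being another that rose (0.74, adjusted p = 0.000305). Plod2 was 1.58-fold higher in TLSMG than in Gastruloid (0.64, adjusted p = 0.00233), and did not pass with GC content and length taken out (0.27, adjusted p = 0.0523). Loxl2, a crosslinking oxidase, was higher in Gastruloid than in 96h (1.63, adjusted p = 7.79e-07) and in TLSMG than in 96h (1.99, adjusted p = 9.72e-08).

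Heparan sulfate chains, which perlecan and agrin carry, are made by enzymes of which 11 were tested. In TLSMG against Gastruloid 7 rose and 1 fell, where 31.5% of all genes were called higher and 7.87% lower. After median-of-ratios scaling 3 rose and 1 fell, and the median moved from 0.24 to 0.07. With GC content and length taken out 4 rose and 2 fell, and the median turned to -0.13. Hs6st2, a sulfotransferase, was 1.91-fold higher there (0.88, adjusted p = 0.00096) and Glce, the epimerase, 1.55-fold (0.61, adjusted p = 0.00114). In TLSMGC against TLSMG 0 rose and 4 fell, a share near the 30.5% of all genes called lower, and with GC content and length taken out 1 rose and 2 fell. The largest fall there was that of Hs6st1 (-0.81, adjusted p = 1.49e-05), and Hs6st2 (-0.53, adjusted p = 0.0144) did not pass with GC content and length taken out. With LDN, Ext1, a chain polymerase, was the 1 gene of the list called (-0.35, adjusted p = 0.0431), a call lost in every fit that left out 1 library and in a fit of these groups alone.

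Of 10 tested receptors for basement membranes, 5 rose and 2 fell in Gastruloid against 96h, where 20.8% of all genes were called higher and 20.5% lower. In TLSMG against 96h 5 rose and 1 fell, where 33.5% of all genes were called higher and 12.5% lower. In TLSMGC against TLSMG 5 of 10 tested fell and 1 rose, where 30.5% of all genes were called lower and 10.4% higher. After median-of-ratios scaling 5 fell and 1 rose as well, but with GC content and length taken out 4 fell and 3 rose, and in TLSMGCL against TLSMG 4 fell and 4 rose. Itga3, an integrin chain that binds laminins, rose from 4.51 TPM in 96h to 10.1 TPM in Gastruloid (0.97, adjusted p = 0.000698) and 12.7 TPM in TLSMG, and stood at 3.23 TPM in TLSMGC (-1.69 against TLSMG, adjusted p = 7.9e-06). Itga1, a collagen-binding chain, fell from 5.69 TPM in 96h to 0.235 TPM in Gastruloid (-2.44, adjusted p = 1.5e-09). Itgb1, the beta chain shared by these integrins, was higher in TLSMG than in Gastruloid (0.47, adjusted p = 0.00117), and Ddr1, a collagen receptor kinase, lower (-0.48, adjusted p = 0.00208). Itgb1 missed the threshold when the correction for GC content and length was joined with a replicate block (0.161, adjusted p = 0.0695). Sdc4, a syndecan, fell with CHIR (-0.64, adjusted p = 3.77e-05).

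Proteins that associate with basement membranes split likewise. Of 14 tested, 6 rose and 4 fell in TLSMGC against TLSMG, where 10.4% of all genes were called higher and 30.5% lower. In TLSMG against Gastruloid 3 rose and 3 fell, or 0 and 3 after median-of-ratios scaling, where 31.5% of all genes were called higher and 7.87% lower. Sparc, which binds collagen IV, averaged 23.2 TPM in 96h, 71.5 TPM in Gastruloid, 81.6 TPM in TLSMG, 19.9 TPM in TLSMGC and 13.6 TPM in TLSMGCL, and was lower with CHIR by a log2 difference of -2.02 (adjusted p = 1.09e-05). Smoc1, a relative of Sparc, went the other way: it averaged 362 TPM in 96h, 143 TPM in Gastruloid, 102 TPM in TLSMG, 148 TPM in TLSMGC and 241 TPM in TLSMGCL. Smoc1 was also the gene of the list that LDN moved (log2 difference 0.71, adjusted p = 0.00237), though not in a fit of these groups alone (adjusted p = 0.0784). Fbln2, a fibulin, rose with CHIR (0.92, adjusted p = 0.00317), and Smoc2 was called higher in TLSMG than in Gastruloid (0.59, adjusted p = 0.0462) but not after median-of-ratios scaling (0.44, adjusted p = 0.143).

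**Figure D5:**
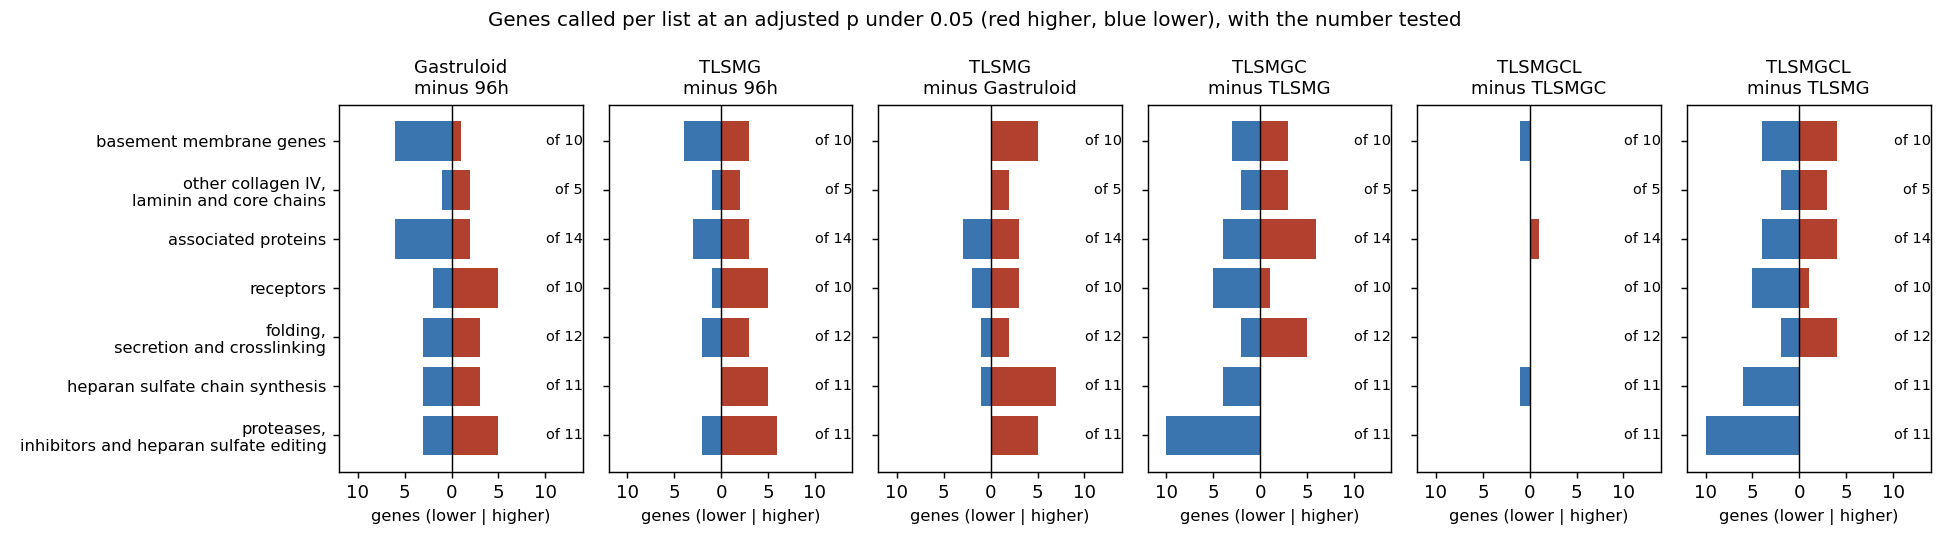
Number of genes called higher (right) and lower (left) by limma at an adjusted p under 0.05 in each list of basement membrane and related genes, 1 panel per comparison, with the number tested at the right of each row. Proteases, inhibitors and heparan sulfate editing show 10 of 11 lower in TLSMGC and in TLSMGCL against TLSMG. Among them is Mmp9, which passed the filter through TLSMG and Gastruloid. With GC content and length taken out the counts were 9 and 7.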

How the data were processed

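Bulk RNA of 15 libraries was analysed, and 5 single-cell samples and the NanoString profiling were not analysed here. Per the labels' protocols, libraries were stranded and read as 75 bp pairs, with a stated minimum of fragments for every library. Reads were handled with cutadapt 2.4, STAR 2.7.3a and StringTie 2.0 on mm10, per the submitters' processing notes; the annotation release is not given in the sources used here. The deposited TPM values, per the file headers, came from StringTie gene tables, 1 per library, and summed to 1000000. The deposited FPKM values stood in the same tables and served as an alternative. The deposited coverage values were used only for relative depth. Lines repeated for a gene ID (7 to 13 per library) were summed, and 54409 of 54446 IDs matched GENCODE M21, 53499 with the same start and end, so coordinates are on GRCm38. There are no read counts, so no counting interval or detection floor was computed.

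Values were taken as log2(TPM + 1), a pseudocount of 1, and tested by limma (version 3.58.1, with R 4.3.3) for 14290 genes with a mean of at least 1 TPM. All 5 groups entered 1 model with a mean trend, and 6 contrasts were tested two-sided, adjusted by Benjamini-Hochberg over all genes within each contrast, with a threshold of 0.05. Log2 differences on this scale understate those of low genes, and "called", "rose" and "fell" refer to this threshold. Folds are ratios of mean TPM. The script was tested on simulated data. Python 3.11.15, pandas 2.3.3 and numpy 2.4.6 handled tables.

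The members, the 6 related lists (79 genes, 63 tested), the markers and the tests were chosen with earlier results of these data known. All members are named. Other genes named were taken from the 2 largest called differences of each related list and comparison with a mean of at least 5 TPM in the higher group, and markers were named for the check of tissues. Mmp9 and Hpse were named for how they stood to the filter. Alternatives were median-of-ratios scaling, FPKM, a pseudocount of 0.1, no filter or a mean of at least 5 TPM, a fit of the compared groups alone, a replicate block, correction for GC content and length, and leaving out each library.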

Additional observations from a re-analysis of the deposited data

How the results depend on the processing

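Of 34 member calls in the 6 comparisons, 21 passed in the same direction under every alternative and 13 were lost in at least 1. The direction turned in 51 of 900 alternatives of the 60 member results, given below as log2 differences, and the cause was not tested. With median-of-ratios scaling the direction turned for Lamc1 (-0.040) in TLSMG against 96h, Col4a1 (-0.065) and Col4a2 (-0.064) in TLSMG against Gastruloid, Nid2 (0.125) in TLSMGC against TLSMG, Lamc1 (0.010) in TLSMGCL against TLSMGC and Agrn (0.191) in TLSMGCL against TLSMG. With FPKM in place of TPM it turned for Lama5 (0.055) in Gastruloid against 96h, Col4a1 (-0.068) and Col4a2 (-0.066) in TLSMG against Gastruloid, Nid2 (0.063) in TLSMGC against TLSMG and Agrn (0.110) in TLSMGCL against TLSMG. With GC content and length taken out, with or without a replicate block, it turned for Lama5 (0.078) in Gastruloid against 96h, Lamc1 (-0.044) in TLSMG against 96h, Col4a1 (-0.101), Col4a2 (-0.079) and Agrn (-0.083) in TLSMG against Gastruloid, Lamc1 (0.142) and Nid2 (0.225) in TLSMGC against TLSMG, Lamc1 (0.009) in TLSMGCL against TLSMGC and Lama1 (0.078), Lamc1 (0.151) and Agrn (0.386) in TLSMGCL against TLSMG. Among fits that left out 1 library, the log2 difference took both signs for Lama5 (-0.126 to 0.075) in Gastruloid against 96h, Lama5 (-0.191 to 0.030) in TLSMG against 96h, Col4a1 (-0.017 to 0.242) and Lama5 (-0.166 to 0.037) in TLSMG against Gastruloid, Nid2 (-0.128 to 0.075) in TLSMGC against TLSMG, Lamb1 (-0.125 to 0.047), Lamc1 (-0.081 to 0.050) and Nid2 (-0.031 to 0.178) in TLSMGCL against TLSMGC and Nid2 (-0.037 to 0.163) and Agrn (-0.093 to 0.046) in TLSMGCL against TLSMG. The count of members called in TLSMG against Gastruloid was 5, and it was 2 with GC content and length taken out and 3 when a replicate block was joined to that. The member added by the block was Lama5, called lower (-0.329, adjusted p = 0.0452). In TLSMGCL against TLSMGC the count of 1 became 0 in a fit of these groups alone, 2 with GC content and length taken out, and 0 to 2 in fits that left out 1 library.

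With a replicate block alone, the count in TLSMGCL against TLSMGC was 0. Same-numbered libraries did not deviate together (mean r = -0.0196 over 30 pairs, from -0.181 to 0.104), and 0 of 15 libraries correlated best with their own number. Deviations were taken from group means of only 3 libraries, so the check gave no sign of pairing by number but cannot exclude it.

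With 3 libraries per group and no read counts, the counting error of low values is unknown. Time and the number of pooled structures cannot be told apart in the comparisons with 96h.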

Other observations

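Patterns most like those of the members were looked up as a description, as Pearson's r of log2(TPM + 1) over the 15 libraries among 10900 genes with a mean of at least 5 TPM. These libraries form 5 groups, so r mostly reflects group means, and no test was made. Lama1 was most like Cachd1 (r = 0.983), which averaged 92.6 TPM in 96h, 23.9 TPM in Gastruloid, 34.5 TPM in TLSMG, 34.2 TPM in TLSMGC and 31.2 TPM in TLSMGCL. Nid1 was most like Fgd5 (r = 0.982), at 18.1 TPM in TLSMG and 1.45 TPM in TLSMGCL. Lama5 was most like Ism1 (r = 0.961), at 18.9 TPM in TLSMG and 95.5 TPM in TLSMGC, and Hspg2 was most like Parvb (r = 0.972), at 11.3 TPM in 96h and 11.1 TPM in TLSMG. The closest genes to the other members were Rnf166 for Col4a1 (r = 0.936), BC034090 for Col4a2 (r = 0.971), Gm16580 for Lamb1 (r = 0.972), Nup98 for Lamc1 (r = 0.957), Hs1bp3 for Nid2 (r = 0.948) and Vapa for Agrn (r = 0.905).

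Among the members themselves, Col4a1 and Col4a2 were the closest pair (r = 0.936). Lama5 was closest to Col4a2 (r = 0.847), Nid1 to Hspg2 (r = 0.778), Nid2 to Lama1 (r = 0.785) and Agrn to Lama1 (r = 0.815). The farthest pair was Nid1 and Lama5 (r = -0.727). Lamc3, a gamma chain below the filter, was 0.557 to 2.29 TPM in TLSMGC and 1.43 to 1.54 TPM in TLSMGCL, against at most 0.0977 TPM in any library of the other groups. Col15a1 was 1.61 to 2.19 TPM in TLSMG and at most 0.169 TPM elsewhere. Both were picked out after their values were seen, and neither was tested.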
